A study of Homo sapiens with 16 samples.

Results

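The genes described here are 36 genes of the hypoxia response and glycolysis, read in HCT116 and RKO cells after treatment with drugs that act on chromatin and DNA methylation. The members were taken from a list of names, with no use of their measured values, and each was read by the probe set (a group of short probes for one transcript) that carried its symbol alone and had the highest mean signal over the 16 arrays. Of the 36 members, 35 had such a probe set, and CA9 was not analysed here. The 35 genes had 75 probe sets of the 54675 on the array, and 23 of them had several. The array named 19775 genes by a probe set of 1 symbol. The members were divided into 15 glycolytic enzymes, 19 other targets of hypoxia-inducible factor (18 with a probe set) and 2 genes that encode the factors themselves, HIF1A and EPAS1.

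Cells that lack oxygen stabilize the alpha subunits of hypoxia-inducible factor (HIF), which pair with a constant partner and bind short DNA sequences of the core ACGTG or GCGTG near their target genes. The targets encode glucose transporters, glycolytic enzymes, secreted growth factors, enzymes that modify collagen, and the prolyl hydroxylases that mark the factor itself for destruction when oxygen returns. Many tumor cells, colon cancer cells among them, keep glycolysis high even when oxygen is present. The labels name no treatment with low oxygen, and oxygen was not measured.

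HCT116 and RKO are established human colon cancer cell lines, and each line was treated for 3 days under 8 conditions with 1 Affymetrix U133 Plus 2.0 array per condition. The conditions were PJ-34, 5-aza-dC and TSA alone, the 3 pairs, all 3 drugs together, and an untreated control. PJ-34, a blocker of poly(ADP-ribose) polymerases, was given at 3 µM in HCT116 cells, while for RKO cells the methods give 2 µM and the results section of the study gives 3 µM. 5-aza-dC, an inhibitor of DNA methyltransferases, was used at 0.5 µM, and TSA, an inhibitor of histone deacetylases, at 150 nM.

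A drug effect is the mean difference in log2 signal between the 4 arrays of a line with the drug and the 4 without it, from a linear model (limma) with a term for each drug. A gene was called when its p, adjusted by Benjamini and Hochberg over all probe sets tested, was under 0.05. Each condition had 1 array and nothing names separate cultures, so the p-values measure the spread left between these arrays after the drug terms. A probe set was tested when its signal reached 100 on at least 4 arrays. All 35 genes passed this filter in HCT116 and 32 did in RKO, where BNIP3, EGLN3 and PLOD2 did not.

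The deposited signals had a trimmed mean of 1000.14 to 1000.16 on every array, with a median of 160 to 210 in HCT116 and 152 to 202 in RKO. The ratio of the 3′ to the 5′ control probe sets of GAPDH was 0.834 to 0.902 in HCT116 and 0.891 to 1.02 in RKO. Of 11 markers of colon epithelium, 9 had a mean signal of at least 100 in HCT116 and 6 in RKO, and their summed signal was 169932 to 258947 in HCT116 and 19488 to 21470 in RKO. The markers were lower in RKO on every array. Leukocyte markers summed to 66.7 to 383 and endothelial markers to 214 to 463 over all 16 arrays. Fibroblast markers summed to 1151 to 4266 in HCT116, where 4 of 6 had a mean of at least 100, and to 374 to 711 in RKO, where 1 did, and their part in differences between the lines was not tested. Earlier results of these data had shown that 1 RKO array, labelled PJ-34, reads high for genes that respond to 5-aza-dC, while another, with the label PJ-34/5-aza-dC, reads low for them. They are called the 2 disputed arrays here, and the named RKO effects and line differences that rest on them are given with and without both.

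The promoters of members that carry the results are shown here because HIF binds the searched cores, and since 5-aza-dC removes DNA methylation from CpG dinucleotides. Each sequence holds 300 bases, most of them before the start of the gene and the rest after it, written 5′ to 3′ on the strand of the gene, from RefSeq on GRCh38.p14, with every match to ACGTG or GCGTG on either strand in capitals (CACGT and CACGC are the matches on the other strand, and CACGTG holds a match on both strands that overlap). ADM (chr11:10304823-10305122, plus strand), SLC2A1 (chr1:42958819-42959118, minus strand), PFKFB3 (chr10:6144671-6144970, plus strand) and ALDOC (chr17:28576846-28577145, minus strand) were called after TSA in HCT116, and BNIP3 (chr10:131981874-131982173, minus strand) is added after its values were seen, as the gene that differed most between the lines.
ADM: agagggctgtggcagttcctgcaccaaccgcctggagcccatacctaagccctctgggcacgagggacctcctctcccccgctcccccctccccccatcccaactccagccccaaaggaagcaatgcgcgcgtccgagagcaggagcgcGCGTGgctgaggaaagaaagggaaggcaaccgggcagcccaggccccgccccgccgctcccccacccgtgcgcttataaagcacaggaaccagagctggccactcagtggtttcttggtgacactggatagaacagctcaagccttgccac
SLC2A1: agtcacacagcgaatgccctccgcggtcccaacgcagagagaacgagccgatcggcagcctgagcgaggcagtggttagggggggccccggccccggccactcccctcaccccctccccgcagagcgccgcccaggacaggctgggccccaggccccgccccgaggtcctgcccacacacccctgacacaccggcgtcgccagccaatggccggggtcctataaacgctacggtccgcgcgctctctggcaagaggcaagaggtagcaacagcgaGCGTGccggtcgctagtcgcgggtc
PFKFB3: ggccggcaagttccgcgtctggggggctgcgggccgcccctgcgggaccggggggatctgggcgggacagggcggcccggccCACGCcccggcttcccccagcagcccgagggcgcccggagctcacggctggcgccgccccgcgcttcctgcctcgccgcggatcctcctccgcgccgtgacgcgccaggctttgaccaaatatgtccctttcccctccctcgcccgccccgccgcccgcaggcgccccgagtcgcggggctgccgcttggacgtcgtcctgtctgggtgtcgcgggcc
ALDOC: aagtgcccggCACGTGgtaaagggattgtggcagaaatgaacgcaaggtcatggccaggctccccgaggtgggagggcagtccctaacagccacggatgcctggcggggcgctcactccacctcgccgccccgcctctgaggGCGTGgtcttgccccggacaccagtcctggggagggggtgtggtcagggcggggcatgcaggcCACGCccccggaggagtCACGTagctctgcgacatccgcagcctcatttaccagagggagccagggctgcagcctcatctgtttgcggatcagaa
BNIP3: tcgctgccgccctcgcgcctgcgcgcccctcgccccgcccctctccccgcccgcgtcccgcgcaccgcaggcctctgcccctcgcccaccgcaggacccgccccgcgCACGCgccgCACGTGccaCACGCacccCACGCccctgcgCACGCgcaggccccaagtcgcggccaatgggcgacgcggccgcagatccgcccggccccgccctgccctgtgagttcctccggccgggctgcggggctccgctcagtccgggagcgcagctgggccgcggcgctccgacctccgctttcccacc

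Promoters were found for 32 of the 36 members. Of these 32, 23 (71.9%) held at least one of the 2 cores, against 48.4% of 35116 promoters of the same length. ACGTG was in 14 of 32 members (43.8%, against 21.4% of all promoters) and GCGTG in 15 of 32 (46.9%, against 36.5%). By class, 10 of 15 glycolytic enzymes and 11 of 15 other targets held a core. Of the genes called as higher with TSA in HCT116, the 3 printed above had 1 match each and PGAM1 had 0. Of those called as lower, ALDOC had 5 and EPAS1 had 1, while no promoter was found for VEGFA, NDRG1 and BNIP3L. BNIP3, which was not called for TSA, had 6. The number of CpG dinucleotides in these 300 bases was 48 in BNIP3, against a median of 30 over the members and 14 over all promoters. Both cores hold a CpG, so all promoters are not a like background for the members. The part of CpG content in the higher shares of the members was not tested. A match describes the letters only, and neither binding nor methylation was measured at these sites.

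**Figure D1:**
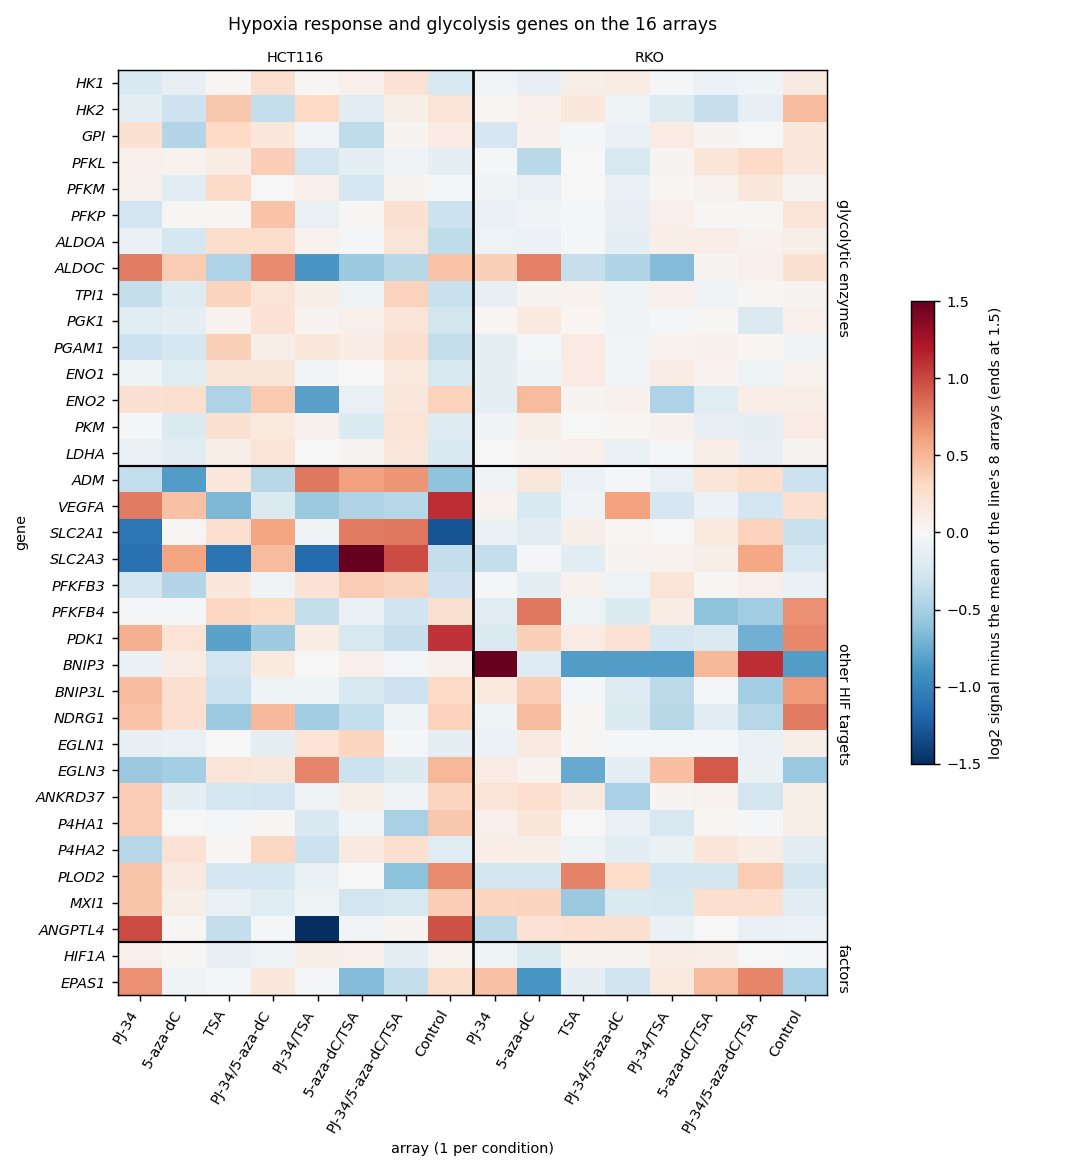
Log2 signal of the 35 genes on each of the 16 arrays, minus the mean of the 8 arrays of the same line, with HCT116 on the left, RKO on the right and the control as the last column of each line. Colors end at 1.5 on the log2 scale and signals under 50 count as 50. In HCT116, ADM is red on the 4 arrays with TSA and ALDOC is blue on them, while SLC2A3 is red on the 4 arrays with 5-aza-dC.

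TSA changed 9 of the 35 genes in HCT116 cells (25.7%), 4 upward and 5 downward, where 8.99% of all 35373 probe sets tested were called (4.16% upward and 4.83% downward). The members' probe sets were brighter than the rest, with a median of 4889 for their mean signals against 488 for all probe sets tested, and the part of brightness in the share called was not tested. The genes with higher signals encode a secreted peptide (ADM), a glucose transporter (SLC2A1), a regulator of glycolysis (PFKFB3) and a glycolytic enzyme (PGAM1). Those with lower signals encode an aldolase (ALDOC), an angiogenic growth factor (VEGFA), a stress-responsive protein (NDRG1), a mitochondrial receptor for autophagy (BNIP3L) and a HIF alpha subunit (EPAS1). By class, 1 glycolytic enzyme was called in each direction and 3 other targets in each direction.

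ADM encodes adrenomedullin, a secreted peptide that dilates blood vessels. Its signal in HCT116 was 9974 with TSA alone, 15273 with PJ-34/TSA, 13527 with 5-aza-dC/TSA and 14030 with all 3 drugs, against 6832 with PJ-34, 4963 with 5-aza-dC, 6640 with PJ-34/5-aza-dC and 5831 in the control. Every array with TSA lay above every array without it. The mean signal was 13201 ± 2273 with TSA and 6066 ± 854 without it (SD, n = 4 arrays each), and the effect was 1.12 in log2 (SE 0.12, adjusted p = 2.37e-04). The call was kept in each of the 8 fits that left out 1 array.

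SLC2A1 encodes GLUT1, the glucose transporter of most cells. Its HCT116 signal was 11189 with TSA, 9148 with PJ-34/TSA, 16309 with 5-aza-dC/TSA and 16430 with all 3 drugs, against 4468 with PJ-34, 9597 with 5-aza-dC, 14308 with PJ-34/5-aza-dC and 3866 in the control. The arms overlapped, and the arrays with 5-aza-dC were also high. Both drugs had an effect, 0.88 for TSA (SE 0.16, adjusted p = 0.00609) and 1.09 for 5-aza-dC (SE 0.16, adjusted p = 0.00435), and each was kept without any 1 array. A second probe set of SLC2A1 gave 1.37 for TSA (adjusted p = 0.00676) and 1.13 for 5-aza-dC (adjusted p = 0.0713). The interaction of these drugs over both lines was −0.37 for SLC2A1 (SE 0.18, adjusted p = 0.981).

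PFKFB3 makes the allosteric activator of phosphofructokinase. With TSA its HCT116 signal was 3445 (alone), 3570 (with PJ-34), 4003 (with 5-aza-dC) and 3880 (all 3 drugs), against 2549 with PJ-34, 2279 with 5-aza-dC, 2965 with PJ-34/5-aza-dC and 2479 in the control. The arms did not overlap, and the effect was 0.54 (SE 0.12, adjusted p = 0.0144). PGAM1, the phosphoglycerate mutase of glycolysis, read 49521, 42860, 41675 and 45399 with TSA in the same order, against 30880 with PJ-34, 32020 with 5-aza-dC, 40883 with PJ-34/5-aza-dC and 30058 in the control. Its arms did not overlap either, though its array with PJ-34/5-aza-dC came close to the lowest array with TSA. PGAM1 was higher with TSA by 0.43 (SE 0.11, adjusted p = 0.0255), and its call was lost without the control array or the array with 5-aza-dC, PJ-34, PJ-34/TSA or all 3 drugs, while that of PFKFB3 was lost without the control array or the array with PJ-34 or 5-aza-dC.

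ALDOC, the aldolase best known from brain, had the largest TSA effect of the 15 glycolytic enzymes in HCT116. Its HCT116 signal was 1459 with TSA, 1098 with PJ-34/TSA, 1369 with 5-aza-dC/TSA and 1510 with all 3 drugs, against 3427 with PJ-34, 2618 with 5-aza-dC, 3285 with PJ-34/5-aza-dC and 2708 in the control. No array with TSA reached any array without it. The mean was 1359 ± 184 with TSA and 3010 ± 406 without it (SD, n = 4 arrays each), an effect of −1.15 (SE 0.15, adjusted p = 8.92e-04). ALDOA, which encodes the aldolase of most tissues, had an effect that did not pass the test.

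VEGFA encodes the growth factor that drives the growth of blood vessels. Its HCT116 signal was 2770 with TSA, 2998 with PJ-34/TSA, 3235 with 5-aza-dC/TSA and 3267 with all 3 drugs, against 7568 with PJ-34, 5974 with 5-aza-dC, 3802 with PJ-34/5-aza-dC and 9502 in the control. The 4 arrays with TSA lay close together, and the array with PJ-34/5-aza-dC was nearer to them than to the other arrays without TSA. The effect was −1.05 (SE 0.19, adjusted p = 0.00482), and the 3 other probe sets of VEGFA gave −0.56, −0.90 and −0.78, of which the probe set at −0.90 passed the test (adjusted p = 0.0197). NDRG1, which encodes a protein induced by several stresses, read 4204, 4270, 4723 and 5806 with TSA in the same order, against 8189 with PJ-34, 7264 with 5-aza-dC, 8563 with PJ-34/5-aza-dC and 7763 in the control. Its arms did not overlap, and its effect was −0.75 (SE 0.11, adjusted p = 0.00157).

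BNIP3L encodes NIX, a receptor on mitochondria for their removal by autophagy. It read 4113, 4919, 4370 and 4151 with TSA, against 7100 with PJ-34, 6054 with 5-aza-dC, 4893 with PJ-34/5-aza-dC and 6352 in the control. The arms overlapped by the array with PJ-34/5-aza-dC alone. The effect of −0.47 (SE 0.12, adjusted p = 0.0274) was lost without the same 5 arrays as that of PGAM1, and the second probe set of BNIP3L gave −0.56 (adjusted p = 0.0138). The calls of ADM, SLC2A1, ALDOC, VEGFA and NDRG1 were each kept in all 8 such fits.

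Signals of the 4 arrays with and 4 without TSA did not overlap for 9 of the 35 genes, where 13.2% of all probe sets tested had arms that did not overlap. These were ADM, PFKFB3, PGAM1, VEGFA, ALDOC, NDRG1, ENO2, EGLN1 and P4HA1. The last 3 did not pass the test. ENO2, the enolase of neurons, had an effect of −0.61 (adjusted p = 0.050042), P4HA1, a subunit of the enzyme that hydroxylates proline in collagen, one of −0.39 (adjusted p = 0.0787), and EGLN1, the main oxygen sensor of the pathway, read 3878 to 4895 with TSA and 3552 to 3653 without it.

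The number called depended on the variance model and on the filter. Without a trend of variance on signal 0 of the 35 genes passed, and without the filter 1 did. The 9 effects are the same values in these fits. The count was 5 without the array with PJ-34 or the array with 5-aza-dC, and 15 without the array with PJ-34/5-aza-dC. The shares of all probe sets called in these fits are not given here. It is therefore left untold whether calls changed for the members alone or for all probe sets.

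**Figure D2:**
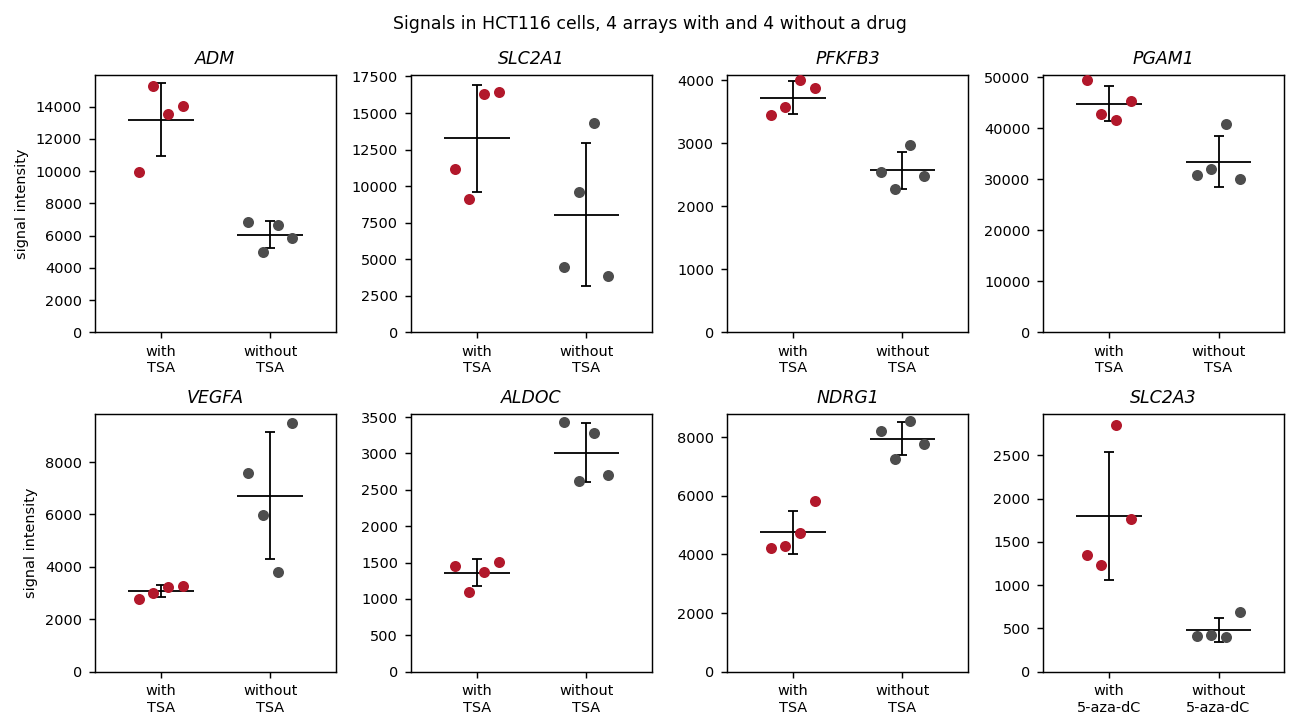
Signal intensity in HCT116 cells for 8 genes, with 4 arrays with the drug on the left and 4 arrays without it on the right of each panel (TSA for 7 genes and 5-aza-dC for SLC2A3). Points are arrays, lines are the mean and the SD. Of these 8 genes only SLC2A1 has arms that overlap, with 14308 on the array with PJ-34/5-aza-dC and no TSA.

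5-aza-dC changed 2 of the 35 genes in HCT116, both upward and both glucose transporters, where 0.744% of all probe sets tested were called (0.673% upward). SLC2A3 encodes GLUT3, a transporter of high affinity known from neurons. Its signal was 1343 with 5-aza-dC, 1238 with PJ-34/5-aza-dC, 2852 with 5-aza-dC/TSA and 1763 with all 3 drugs, against 411 with PJ-34, 418 with TSA, 402 with PJ-34/TSA and 695 in the control. The arms did not overlap, and the array with 5-aza-dC/TSA stood highest. The rise of SLC2A3, in log2, was 1.86 with an SE of 0.25 (adjusted p = 0.00150), and the signal had a mean of 1799 ± 738 with 5-aza-dC and 482 ± 142 without it (SD, n = 4 arrays each). Its other 2 probe sets rose by 2.02 and 2.05 (adjusted p = 0.0124 and 0.00512), and the near-identical SLC2A14 could share their probes.

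For SLC2A1 the arrays with 5-aza-dC read 9597 to 16430 and those without it 3866 to 11189. P4HA2, another subunit of the collagen prolyl hydroxylase, read 4265, 4564, 4041 and 4337 with 5-aza-dC, against 2730 with PJ-34, 3716 with TSA, 2925 with PJ-34/TSA and 3247 in the control. Its arms did not overlap (as for 4.21% of all probe sets tested), and its effect of 0.46 did not pass the test (SE 0.12, adjusted p = 0.147). With no filter or no variance trend 0 of the 35 genes were called for 5-aza-dC, and without the array with TSA alone 6 were. The shares of all probe sets called in these fits are not given here either.

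PJ-34 alone among the drugs gave no call in HCT116 at any gene, member or not (0 of 35373 probe sets by limma, 1323 at an unadjusted p under 0.05, and 1 of the 35 genes, ADM with an effect of 0.33). The largest effects of members in the bright range were −0.41 for SLC2A3 (SE 0.25, adjusted p = 0.981) and 0.33 for ADM (SE 0.12, adjusted p = 0.981). Signals with and without PJ-34 overlapped for all 35 genes, where 1.63% of all probe sets tested had arms that did not overlap.

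Most of the 15 glycolytic enzymes had effects above 0 in HCT116 for each drug, though ALDOC with TSA lay far below. With TSA in HCT116 their median effect was 0.14, with 11 of 15 above 0, against −0.18 for the other targets, with 7 of 18 above 0, and −0.07 over all probe sets tested. The difference of medians, 0.32, varied over the 4 pairs of arrays that differ by TSA alone from 0.02 to 0.77 (SD 0.33). For 5-aza-dC the medians were 0.09, with 11 of 15 above 0, and −0.04, with 8 of 18 above 0 (all probe sets −0.01), a difference of 0.13 that ran over pairs from −0.48 to 0.32 (SD 0.38). For PJ-34 they were 0.12, with 13 of 15 above 0, and −0.04 (all probe sets −0.02), a difference of 0.16 that ran from −0.29 to 0.36 (SD 0.29), and in the pair of PJ-34/TSA against TSA alone all 15 enzymes were lower with PJ-34, whereas all 15 were higher in the pair of all 3 drugs against 5-aza-dC/TSA and 14 of 15 in that of PJ-34/5-aza-dC against 5-aza-dC. Except for TSA, the pairs took both signs. Each pair sets 1 array against 1. Over all probe sets tested, the medians of the named PJ-34 pairs, in the same order, were −0.02, 0.02 and −0.08. The 3′ control probe set of ACTB read 67597 to 75378 on the arrays with TSA and 72846 (PJ-34/5-aza-dC), 61170 (5-aza-dC), 53137 (PJ-34) and 50758 (control) without it. That of GAPDH did not follow TSA, at 96722.5 (PJ-34/TSA) to 108153 (all 3 drugs) with it. Without TSA it ran from 91625.5 (control) to 121144 (PJ-34/5-aza-dC). The part of such array differences in the shift of the enzymes was not tested.

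The untreated HCT116 array had the lowest signal of the line for 6 of the 15 enzymes (PFKP, ALDOA, PGK1, PGAM1, ENO1 and LDHA, 40%, against 11.8% of all probe sets) and the highest for 0. In RKO the untreated array was the highest of the line for 5 of 15 (HK1, HK2, GPI, PFKP and PKM, 33.3%, against 11.7%) and the lowest for 0. When both disputed arrays were left out, it was the highest for the same 5 enzymes (against 16.3% of all probe sets) and the lowest for PGAM1. Both counts rest on 1 array per line, and every comparison with the control shares it.

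**Figure D3:**
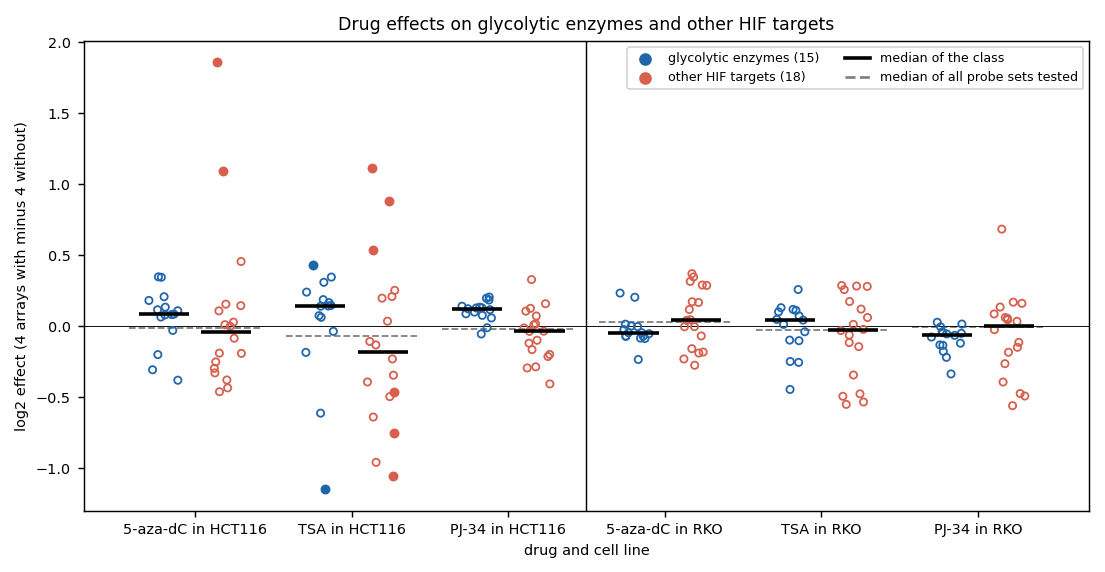
Log2 effect of each drug in each line (4 arrays with minus 4 without) for 15 glycolytic enzymes in blue and 18 other HIF targets in red, with filled points for genes past the test, black bars for class medians and dashed lines for the median of all probe sets tested. Filled points occur for 5-aza-dC and TSA in HCT116 alone, and the largest is SLC2A3 at 1.86.

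Among the factors, HIF1A, the alpha subunit stabilized first in hypoxia, had signals of 19195 to 22697 in HCT116 and 12715 to 15918 in RKO. Its drug effects lay between −0.06 and 0.12 over both lines, and none passed the test. With both disputed arrays left out, its RKO effects were −0.09 for 5-aza-dC, 0.18 for TSA and −0.02 for PJ-34, and again none passed. EPAS1 encodes HIF-2 alpha. In HCT116 it read 4367 with TSA, 4367 with PJ-34/TSA, 2826 with 5-aza-dC/TSA and 3469 with all 3 drugs, against 7127 with PJ-34, 4272 with 5-aza-dC, 5013 with PJ-34/5-aza-dC and 5332 in the control. Its TSA effect was −0.53 (SE 0.11, adjusted p = 0.0107) and its call was lost without the array with PJ-34 or the array with 5-aza-dC. The arms overlapped by the array with 5-aza-dC. For 5-aza-dC the effect of EPAS1 in HCT116 was −0.45 (SE 0.11, adjusted p = 0.103), and all 4 pairs of arrays were lower with the drug. For PJ-34 it was 0.24 (SE 0.11, adjusted p = 0.981). In RKO the 5-aza-dC effect was 0.02 (SE 0.25, adjusted p = 0.993), and 0.27 without both disputed arrays (adjusted p = 0.665).

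Of 26 further genes of the HIF pathway tested in HCT116, 3 rose with TSA and 5 fell, where 4.16% of all probe sets tested were called upward and 4.83% downward. BHLHE40, a transcriptional repressor induced by hypoxia, fell by 1.41 (SE 0.15, adjusted p = 2.37e-04), DDIT4, an inhibitor of mTOR signaling, by 1.10 (adjusted p = 0.00635) and STC2, a secreted glycoprotein, by 0.98 (adjusted p = 0.0135). The 3 that rose were TFRC, the transferrin receptor (0.56, adjusted p = 0.00316), HMOX1, which degrades heme (0.83, adjusted p = 0.0125), and GBE1, the glycogen branching enzyme (0.42, adjusted p = 0.0393). Of 19 further glycolysis genes, 2 rose and none fell, a share near the 8.99% of all probe sets called. These were TIGAR, which lowers the activator of phosphofructokinase (1.19, adjusted p = 8.79e-04), and MPC2, a subunit of the mitochondrial pyruvate carrier (0.46, adjusted p = 0.0145). GAPDH had an effect of −0.12 that did not pass the test.

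In RKO cells no member passed for any drug (0 of 32 for each, by limma, with 2, 8 and 3 members at an unadjusted p under 0.05 for 5-aza-dC, TSA and PJ-34, and 7, 9 and 3 without both disputed arrays). The backgrounds were 0% for 5-aza-dC, 0.00591% for TSA and 0% for PJ-34. The class medians lay between −0.06 and 0.04 for every drug, and between −0.06 and −0.01 without both disputed arrays. Signals of ADM did not overlap between the arrays with 5-aza-dC (3752 to 4577) and those without it (3043 to 3678), and its effect was 0.29 (SE 0.10, adjusted p = 0.882), against 0.38 (SE 0.10, adjusted p = 0.0651) without both disputed arrays. ADM was the 1 gene of 35 whose arms did not overlap for 5-aza-dC, where 2.66% of all probe sets tested had such arms. For TSA there were 2, against 7.33% of all probe sets tested. PFKFB3 read 3669 to 4131 with TSA and 3261 to 3589 without it, and PGAM1 read 43303 to 46048 with TSA and 38202 to 41849 without it. For PJ-34 there was 1, LDHA, at 64818 to 70238 with the drug and 72831 to 75566 without it, against 1.46% of all probe sets tested. The lines differ in the number called, but the number alone does not show that the lines respond differently, and the differences themselves are given below.

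PDK1 encodes a kinase that inhibits pyruvate dehydrogenase. In RKO, BNIP3L, NDRG1 and PDK1 had log2 effects of −0.48, −0.49 and −0.53 for TSA and of −0.47, −0.56 and −0.49 for PJ-34. All had an unadjusted p under 0.05 and none passed the adjusted test (adjusted p = 0.123, 0.163 and 0.177 for TSA and 1.00 for PJ-34). Leaving out both disputed arrays gave effects of −0.53, −0.70 and −0.59 for TSA (adjusted p = 0.180, 0.116 and 0.148) and −0.42, −0.35 and −0.44 for PJ-34 (adjusted p = 0.882 each). The untreated array was the highest of the 8 for these 3 genes, at 4910 for BNIP3L, 3901 for NDRG1 and 4506 for PDK1, and the array with 5-aza-dC was next, at 4089, 3157 and 3484. Among bright members the largest TSA effects in RKO were 0.61 for EPAS1 (SE 0.25, adjusted p = 0.362) and −0.55 for PFKFB4 (SE 0.23, adjusted p = 0.361). Without both disputed arrays, where TSA is compared only among RKO arrays free of PJ-34, they were 0.85 and −1.08 (adjusted p = 0.475 and 0.146). PFKFB4 read 543 to 891 with TSA and 716 to 1426 without it. For PJ-34, EPAS1 had an effect of 0.51 (SE 0.25), and of 0.27 without both disputed arrays (adjusted p = 0.942).

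Without both disputed arrays, 5-aza-dC raised 2 members, MXI1 by 0.60 (SE 0.10, adjusted p = 0.00747) and ALDOC by 0.55 (SE 0.12, adjusted p = 0.0305), where 1.96% of all probe sets tested were called (1.11% upward). MXI1 encodes an antagonist of the transcription factor MYC. It read 4900 with 5-aza-dC, 4624 with 5-aza-dC/TSA and 4633 with all 3 drugs, against 2642 with TSA, 3277 with PJ-34/TSA and 3472 in the control, while the array labelled PJ-34/5-aza-dC read 3340 and the array labelled PJ-34 read 4860. The 3 undisputed arrays with 5-aza-dC all exceeded the 3 without it, and each of the 2 disputed arrays sat with the other arm. ALDOC read 3722, 2263 and 2316 on the 3 undisputed arrays with 5-aza-dC, against 1730 with TSA, 1405 with PJ-34/TSA and 2582 in the control, and these arms overlapped. With all 8 arrays the effect of MXI1 was 0.32 (SE 0.17, adjusted p = 0.882). These arrays were set aside because of genes that respond to 5-aza-dC, so that a larger effect without them is not independent evidence.

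BNIP3 encodes a mitochondrial protein of the BCL2 family that is induced by hypoxia and acts in cell death and autophagy. It was dim in RKO and read 77.7 with 5-aza-dC, 125 with 5-aza-dC/TSA and 192 with all 3 drugs, against 5.83 with TSA, 9.22 with PJ-34/TSA and 3.31 in the control, while the array labelled PJ-34/5-aza-dC read 18.2 and the array labelled PJ-34 read 338. As for MXI1, the 3 undisputed arrays with the drug exceeded the 3 without it. The array labelled PJ-34 lay above all of them, and the array labelled PJ-34/5-aza-dC was under 50, as were the 3 undisputed arrays without the drug. The second probe set of BNIP3 read 210, 54.3 and 104 with 5-aza-dC, against 15.04 with TSA, 74.1 with PJ-34/TSA and 65.7 in the control, and these arms overlapped. As 3 of the 8 RKO signals reached 100, BNIP3 was not tested in this line. Its printed promoter was the one with 48 CpG dinucleotides and 6 matches.

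**Figure D4:**
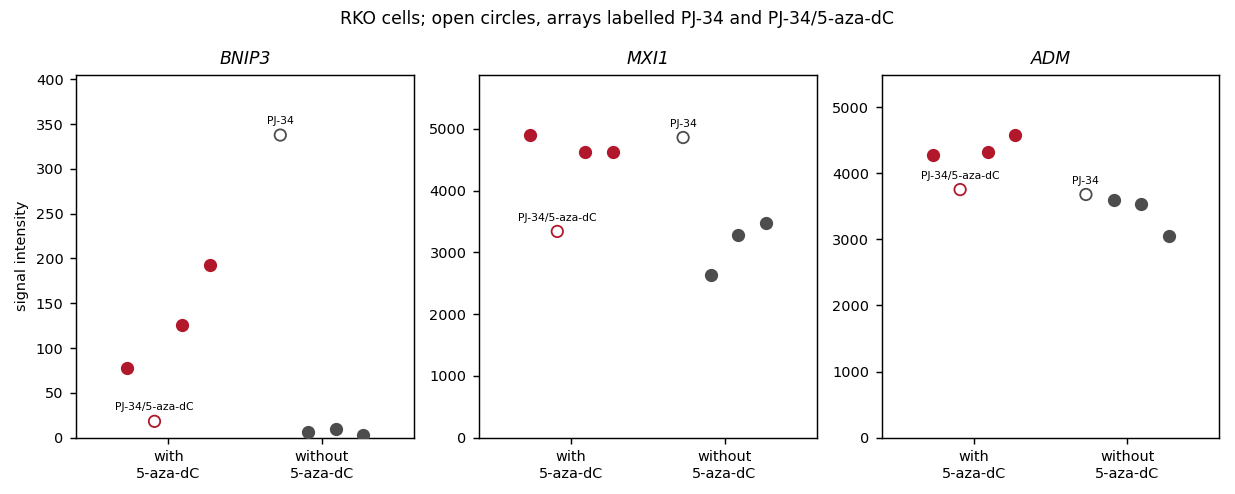
Signal intensity in RKO cells of BNIP3, MXI1 and ADM, with arrays with 5-aza-dC in red on the left and arrays without it in grey on the right of each panel, and the arrays labelled PJ-34/5-aza-dC and PJ-34 as open circles with their labels. For BNIP3 the open circle without 5-aza-dC reads 338, above every array labelled with the drug.

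The levels of the 2 lines were compared over 8 arrays each, in a model of both lines. Of the 35 genes, 24 differed (14 higher in HCT116 and 10 higher in RKO), where 43.8% of all 42119 probe sets tested were called (21.1% higher in HCT116 and 22.8% higher in RKO). Without both disputed arrays 25 differed (13 and 12), and the share of all probe sets called in that fit is not given here. BNIP3 had signals of 4640 to 6220 (median 5776) in HCT116 and 3.31 to 338 (median 48.0) in RKO. PLOD2, a lysyl hydroxylase of collagen, had 1152 to 2891 (median 1686) in HCT116 and 4.97 to 102 (median 33.3) in RKO, where 5 of the 8 signals were under 50. The ranges of these 2 genes were far apart. With signals under 50 set to 50, the log2 differences were 5.98 (SE 0.30, adjusted p = 2.25e-10) for BNIP3 and 4.86 (SE 0.23, adjusted p = 1.12e-10) for PLOD2, and both depend on that floor. With both disputed arrays set aside they were 6.21 and 5.00, and both were called.

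EPAS1 read 2826 to 7127 (median 4367) in HCT116 and 304 to 929 (median 563) in RKO, a log2 difference of 2.99 (SE 0.12, adjusted p = 2.14e-11). SLC2A1 was also higher in HCT116, at 3866 to 16430 (median 10393) against 1736 to 2783 (median 2211) in RKO, a difference of 2.11 (SE 0.09, adjusted p = 3.44e-11). No HCT116 array overlapped any RKO array for either gene. HIF1A differed by 0.52 (SE 0.06, adjusted p = 6.79e-06), again with no overlap. Without both disputed arrays the differences were 3.07 for EPAS1, 2.02 for SLC2A1 and 0.56 for HIF1A, and all 3 were called.

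ANGPTL4, a secreted inhibitor of lipoprotein lipase, went the other way, at 60.3 to 351 (median 178) in HCT116 and 2247 to 3494 (median 2864) in RKO, a log2 difference of −4.05 (SE 0.22, adjusted p = 4.91e-10). PDK1 read 561 to 2068 (median 943) in HCT116 and 1650 to 4506 (median 2656) in RKO (difference −1.48, SE 0.17, adjusted p = 2.14e-06). The ranges of PDK1 overlapped. ENO2 and HK2, a hexokinase bound to mitochondria, were lower in HCT116, with log2 differences of −1.27 and −1.22 (adjusted p = 9.79e-08 and 2.04e-09). Each of these 8 genes was called in all 16 fits that left out 1 array. In the fit that left out both disputed arrays the differences were −4.17 for ANGPTL4, −1.25 for PDK1, −1.34 for ENO2 and −1.21 for HK2, and all 4 were called.

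LDHA and ENO1, enzymes of the lower part of glycolysis, differed little between the lines. LDHA, which makes lactate, averaged 78042 ± 8066 in HCT116 and 70799 ± 3960 in RKO, and ENO1 69407 ± 7703 in HCT116 and 59630 ± 4080 in RKO (SD, n = 8 arrays each). The difference of 0.14 for LDHA did not pass the test (adjusted p = 0.0672) and that of 0.21 for ENO1 did (adjusted p = 0.00813). When both disputed arrays were left out, the call of ENO1 was lost, at 0.13 (adjusted p = 0.208), and LDHA was at 0.094 (adjusted p = 0.383). Larger differences lay at phosphofructokinase, where PFKP was 1.26 higher and PFKL 1.34 higher in HCT116 on the log2 scale (adjusted p = 1.50e-09 and 1.27e-07), and 1.16 and 1.22 higher without both disputed arrays. PFKM, the muscle form, had a difference of −0.11 that did not pass the test (adjusted p = 0.216). Of the 24 calls, 7 were glycolytic enzymes (3 higher in HCT116 and 4 in RKO) and 15 other targets (9 and 6).

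**Figure D5:**
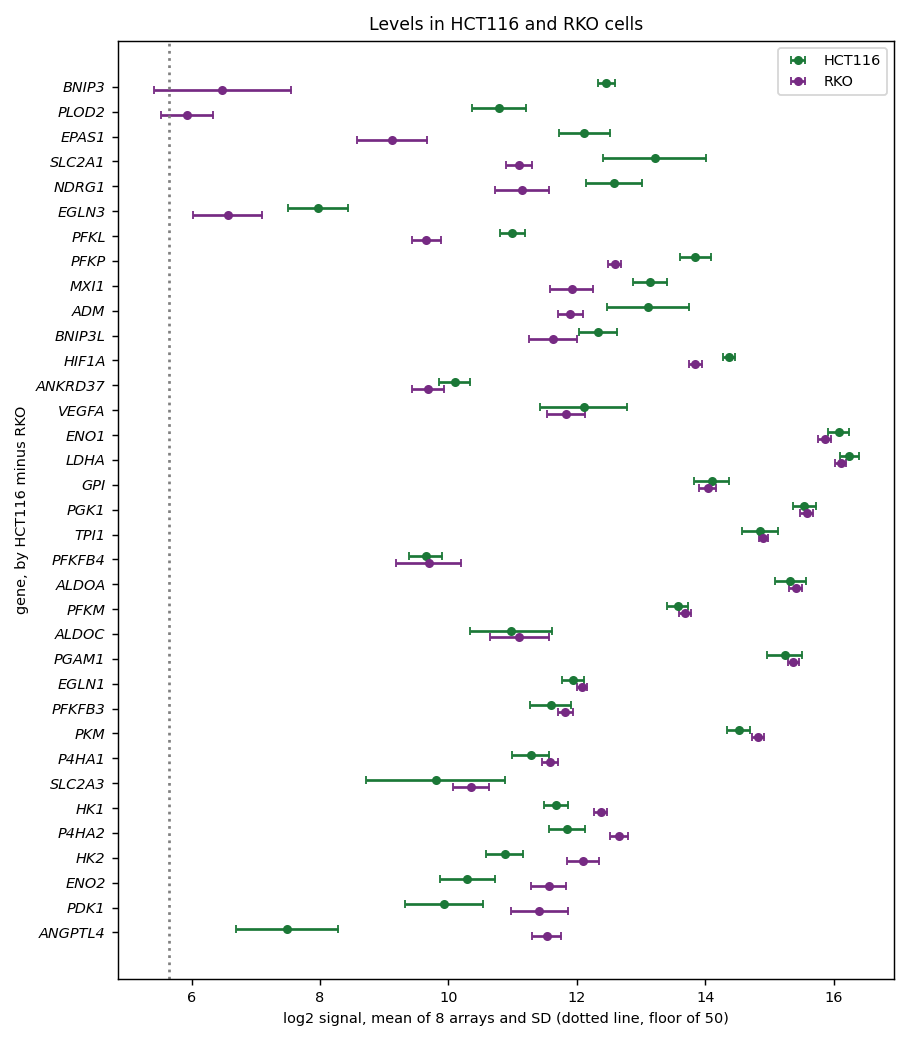
Mean log2 signal and SD over 8 arrays for the 35 genes in HCT116 (green) and RKO (purple), in order of HCT116 minus RKO, with the floor of 50 dotted. BNIP3, PLOD2 and EPAS1 are farthest apart with HCT116 higher, and ANGPTL4 with RKO higher.

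The difference between the lines in a drug effect was tested for each gene. For TSA, ADM passed, with an effect that was 0.99 larger in HCT116 than in RKO on the log2 scale (SE 0.15, adjusted p = 0.0183), and 0.283% of all probe sets tested were called. ADM signals in RKO were 3598 with TSA, 3529 with PJ-34/TSA, 4323 with 5-aza-dC/TSA and 4577 with all 3 drugs, against 3678 (array labelled PJ-34), 4279 with 5-aza-dC, 3752 (array labelled PJ-34/5-aza-dC) and 3043 in the control, and these arms overlapped, unlike those in HCT116. The call was kept in 5 of the 16 fits without 1 array, those without the HCT116 array with TSA or with PJ-34/5-aza-dC, either disputed array, or the RKO array with TSA, and was lost in the other 11. Without both disputed arrays ADM had a difference of 0.98 (adjusted p = 0.0589), and VEGFA passed instead, with −1.25 (adjusted p = 0.0183), where 0.291% of probe sets were called. EPAS1 had a difference of −1.14 for TSA (SE 0.25, adjusted p = 0.0683) and of −1.29 without both disputed arrays (adjusted p = 0.0754), with RKO signals of 508, 618, 776 and 929 with TSA, against 754 and 453 on the disputed arrays, 304 with 5-aza-dC and 399 in the control.

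For 5-aza-dC no member passed (0 of 35 by limma, where 0.0427% of all were called and 4 of the members had an unadjusted p under 0.05). The differences were 1.51 for SLC2A3 (SE 0.28, adjusted p = 0.122) and 0.92 for SLC2A1 (SE 0.18, adjusted p = 0.142). In RKO SLC2A3 read 1284, 1343, 1383 and 1940 with 5-aza-dC against 1017, 1165, 1350 and 1105 without it. Its RKO effect was 0.35 (SE 0.14, adjusted p = 0.882), and 0.33 without both disputed arrays (adjusted p = 0.282). Without both disputed arrays 2 members passed, SLC2A3 at 1.67 (adjusted p = 0.0222) and MXI1 at −0.82 (adjusted p = 0.0175), where 0.231% of probe sets were called, and SLC2A1 was at 0.75 (adjusted p = 0.0886). As these arrays were set aside because of genes that respond to 5-aza-dC, calls gained without them are not independent evidence. For PJ-34 no member passed (0 of 35 by limma, 4 at an unadjusted p under 0.05, background 0%). The 15 glycolytic enzymes all had a larger PJ-34 effect in HCT116 than in RKO, with a median difference of 0.19 against −0.01 for the other targets. Without both disputed arrays, 9 of 15 had a larger effect in HCT116. The share of all probe sets with a larger effect in HCT116 is not given here. The enzymes are read on the same arrays and are not replicates.

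The study asked whether combined drugs differ from single ones, and compared them within each line by thresholds of fold change. An interaction asks instead whether the effects of both drugs of a pair add up on the log2 scale. Its calls do not answer the question as the study put it. The 3 interactions of drug pairs, fitted over both lines, gave 0 calls each among the 35 genes and among all 42119 probe sets (limma, 0% background), with 1887, 2872 and 1307 probe sets at an unadjusted p under 0.05 for 5-aza-dC with TSA, 5-aza-dC with PJ-34 and TSA with PJ-34. The members at an unadjusted p under 0.05 numbered 4, 3 and 0. SLC2A3 had an interaction of 0.63 between 5-aza-dC and TSA (SE 0.28, adjusted p = 0.981), and MXI1 one of 0.48 (SE 0.17, adjusted p = 0.981). Leaving out both disputed arrays, these were 0.78 and 0.27 (adjusted p = 0.693 and 0.740), that of SLC2A1 was −0.55 (adjusted p = 0.619), and again 0 of the 35 genes were called for any pair of drugs (6, 5 and 4 at an unadjusted p under 0.05).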

How the data were processed

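RNA of 16 samples was read on 1 array each. The authors deposited signal intensity values, which GCOS produced on a linear scale with each array brought to a common trimmed mean. Detection calls were not used. For GCOS, a version is not given in the sources used here. Members and gene lists were chosen with earlier results of these data known. Of 54675 probe sets, 41097 carried 1 symbol in the platform annotation, 1801 several and 11777 none, and 62 control probe sets were left out of tests. A gene was read by its probe set with the highest mean signal. After raising signals below 50 to 50 and taking log2, only probe sets that reached 100 on 4 or more arrays of the fit entered it. limma 3.58.1 (R 4.3.3) was run with a trended variance in each line (a term per drug) or over both (drugs, drug pairs, line and line by drug), and p was adjusted within each of 13 comparisons. The script was tested on simulated data. Values are named for members past the test in a drug effect or line difference (at most 12), for the 2 largest effects per drug and line among bright members, for up to 4 per direction between the lines, and for HIF1A and EPAS1. P4HA2, ENO2, P4HA1, EGLN1, BNIP3L, NDRG1 and PDK1 in RKO and the second probe sets were added after their values were seen. Alternatives were floors of 20 and 100, no filter, quantile normalization, no variance trend, all probe sets of a gene, all 16 arrays in 1 fit, PFKFB3 and PFKFB4 counted as enzymes, leaving out each array, and leaving out both disputed RKO arrays. The number of arrays limits the precision.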

Additional observations from a re-analysis of the deposited data

Results flagged for a closer look

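ADM was the member whose TSA effect differed between the lines by a test of the difference itself. The log2 effect of TSA in HCT116 minus that in RKO was 0.99 (SE 0.15, adjusted p = 0.0183, limma). The effect was 1.12 in HCT116, where all 4 pairs of arrays were higher with TSA, and 0.12 in RKO, where 3 of 4 were. The adjusted p ran up to 0.341 over the alternatives. The call was lost in 11 of the 16 fits without 1 array, and also without both disputed RKO arrays.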

How the results depend on the processing

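No analysis paired by replicate number was possible, because every array carries number 1 as its replicate and the groups compared share fewer than 2 numbers. The pairs in the report are arrays that differ by 1 drug. For TSA in HCT116, 9 members were called, against 1 with no filter and 0 with no variance trend, and 5 to 15 without 1 array. For 5-aza-dC in HCT116, 2 were called, against 0 with no filter and 0 with no variance trend, and 2 to 6 without 1 array. In RKO, 0 were called for 5-aza-dC, against 2 without both disputed RKO arrays, and 0 for TSA, against 0 to 1 without 1 array. The line difference of 5-aza-dC had 0 calls, against 2 without both disputed RKO arrays, and 0 to 1 without 1 array. That of TSA had 1, against 2 with quantile normalization, 0 with no filter, 0 with no variance trend and 0 to 4 without 1 array. Except for the fits without both disputed RKO arrays, the shares of all probe sets called in these other fits are not given here. The causes were not tested. The class difference for TSA in RKO was 0.07, against −0.0612 with quantile normalization, −0.0267 without both disputed RKO arrays, 0.180 over all probe sets of each gene and −0.0591 to 0.148 without 1 array. For PJ-34 in RKO it was −0.07, against −0.0869 to 0.0749 without 1 array. Effects near 0 changed sign for HIF1A (without 1 array −0.101 to 0.0267 for TSA and −0.0822 to 0.0453 for PJ-34 in HCT116, −0.0916 to 0.0147 for 5-aza-dC and −0.0111 to 0.0813 for PJ-34 in RKO, where it was −0.0183 without both disputed RKO arrays) and for EPAS1 with 5-aza-dC in RKO (−0.0438 with quantile normalization, −0.191 to 0.265 without 1 array). Signals under 50, as for BNIP3 and PLOD2 in RKO, have no order that the floor leaves visible.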
